A study of Homo sapiens with 4 samples.

Results

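The MYC and POU5F1B enhancer region is a stretch of human chromosome 8 in which acetylated chromatin was profiled in A375, an established melanoma cell line. Its members are all lines of the authors' deposited table whose assigned gene is MYC or POU5F1B, 91 distinct regions of 91107 in all, 60 assigned to MYC and 31 to POU5F1B. No region of that table between the outermost members was assigned to any other gene. The study compared H3K27ac, acetylation of histone H3 at lysine 27, by chromatin immunoprecipitation and sequencing in A375 cells treated for 48 hours with 1 mM octanoate (2 libraries), a fatty acid of medium chain length, or with its vehicle, isopropanol (2 libraries). The authors' deposited table gives for each region its mean normalized level, the log2 fold change with a standard error (SE), and p-values, but nothing for single libraries, so the spread between replicates and the depth of each library are unknown. Its header does not name the numerator of the fold change, and changes are therefore called positive or negative. The locus was chosen by the fold changes and p-values of this comparison, which were known beforehand, so the values below are descriptions and none is a test of the locus.

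H3K27ac is laid down by acetyltransferases such as EP300 and CREBBP and marks active promoters and enhancers. MYC encodes a transcription factor that pairs with MAX and drives ribosome production, metabolism and cell division. It lies in a wide stretch with few protein-coding genes, where enhancers used in different tissues are spread far to both sides of it and act on it over long distances. POU5F1B is a retrotransposed copy of POU5F1, the gene of the pluripotency factor OCT4. Several long non-coding RNA genes share the stretch, among them CCAT1, CASC21 and CASC8 on the POU5F1B side and PVT1 on the other side of MYC. The assignment of a region to a gene is the authors' and does not show that the region acts on that gene.

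The 91 regions spanned 1784 kb of chromosome 8, from position 126950772 to 128734928 in hg38 (the build in the submitters' processing notes), and covered 160.5 kb of it, or 9.0%. Regions no more than 10 kb apart were joined, which gave 41 groups, of which 24 were single regions. The 6 groups that spanned 20 kb or more held 38 regions and 61.3% of the summed mean level of the members. One of these lay over and beside CCAT1 (127201571 to 127229139, 6 regions, 12.2% of the summed level, 19.3 kb covered). Another lay to the left of MYC (127617521 to 127646692, 6 regions, 5.73%, 8.56 kb covered). The other 4 lay over PVT1. The longest of those was 42.8 kb (127889732 to 127932572, 8 regions, 13.7%, 17.9 kb covered), and the one at the start of the PVT1 span (127793935 to 127833289, 9 regions, 21.5 kb covered) held 15.3%, the largest share of any group. The acetylated stretches were thus concentrated around CCAT1 and along PVT1, with long empty intervals between them. The widest interval without a region was 128.5 kb, far to the right of MYC, and the third widest, 87.1 kb, ended at the region over the MYC start.

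**Figure D1:**
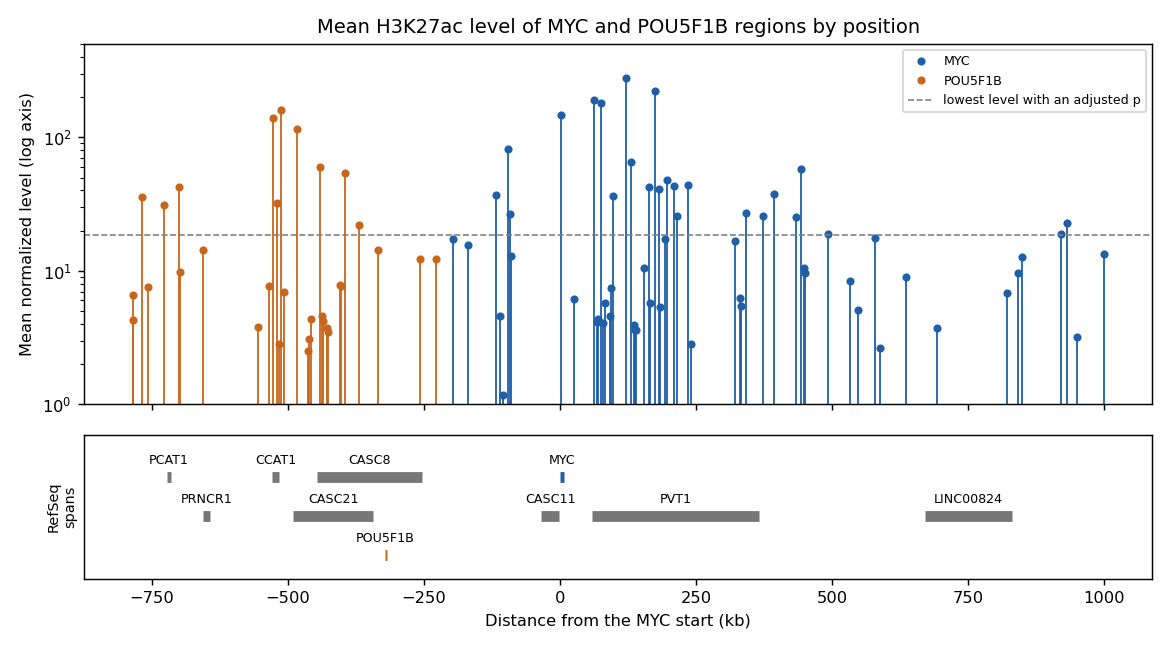
Mean normalized level of each MYC (blue) and POU5F1B (orange) region on a log axis against its distance from the MYC start in kb, with stems drawn down to 1 as guides and RefSeq gene spans underneath. The highest points, up to 278, lie over PVT1 and next to CCAT1, and the dashed line marks the lowest level of any region with an adjusted p, 18.4.

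Most members carried positive values. Of the 91 regions, 80 were positive in the authors' deposited table, or 87.9%, beside 73.7% of all regions. The median of the 91 was 0.55, beside 0.28 over all regions of the authors' deposited table. The 34 members at or above a mean level of 18.4 had received an adjusted p. Of these 34, 32 were positive (94.1%, beside 87.3% of all such regions) and their median in the authors' deposited table was 0.48, beside 0.32 over all 36436 such regions. The other 57 members were too low in level to receive an adjusted p, and their median was 0.69 with a median SE of 0.67, so single values among them carry wide errors. At an adjusted p under 0.05, 3 of the 34 passed in the authors' deposited table, all positive and all assigned to POU5F1B, where 1.67% of all regions passed (1.65% as positive) and 1.16% of those on chromosome 8. Under each stricter rule tried a single member passed. The rules included an added fold limit of 1 on the log2 scale (0.876% of all regions) and a threshold of 0.01 (0.351%). They also included adjustment over all distinct regions (0.274%) or all lines (0.273%). The others subtracted the median of all regions with an adjusted p (0.124%) or of those on chromosome 8 (0.115%). At an unadjusted p under 0.05, 11 of the 34 passed, where 18.4% of all regions did in the authors' deposited table.

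**Figure D2:**
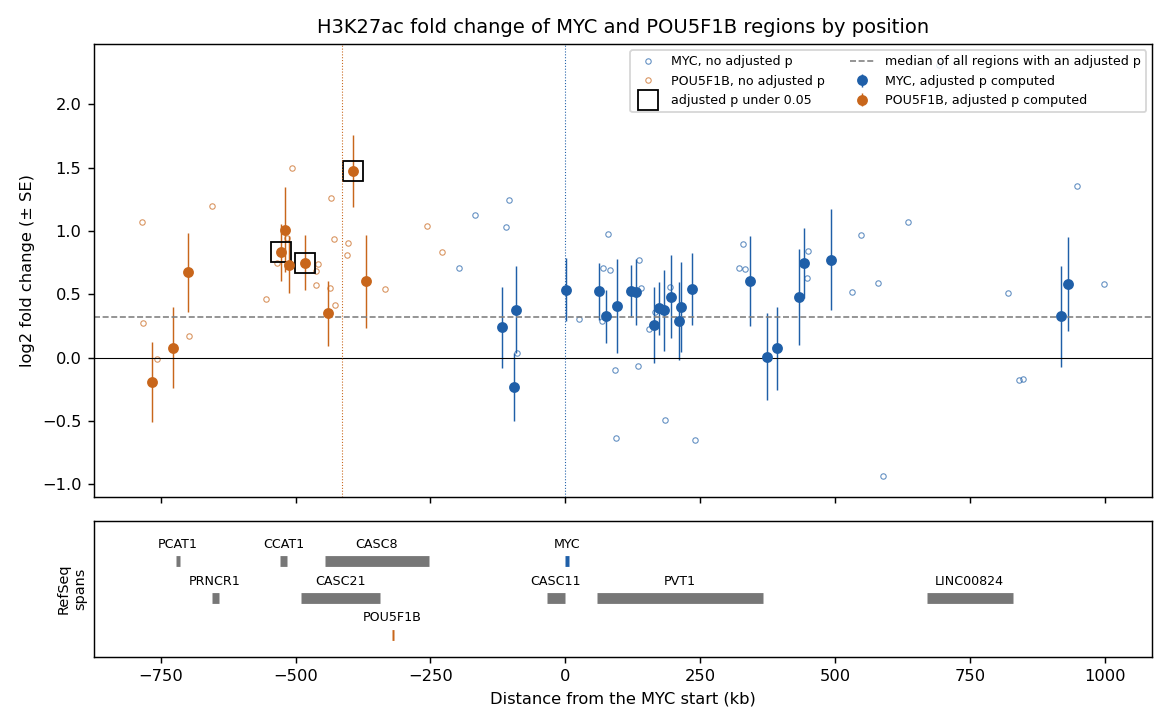
Log2 fold change of each region against its distance from the MYC start in kb, with bars of 1 SE for regions with an adjusted p (filled) and none for the others (open). Squares mark the 3 regions with an adjusted p under 0.05, all on the POU5F1B side. Dotted lines mark the 2 starts used by the authors and the dashed line the median of all regions with an adjusted p, 0.32.

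The deposited distances place the MYC start at 127735434, the position at which RefSeq (GRCh38.p14) begins the gene. For POU5F1B they imply a start at 127322183, which lies 91.3 kb to the left of the RefSeq span of the gene (127413447 to 127417224). No region of the authors' deposited table lay over that RefSeq span or over the start the authors used. The nearest regions to the authors' start were small: one 13.5 kb to its left (127308485 to 127308729) with a mean level of 3.45 and one 8.21 kb to its right (127330391 to 127331400) with 7.79 in the authors' deposited table. The regions named for POU5F1B are therefore all distal.

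The outermost members on the POU5F1B side, within the span of the long non-coding RNA gene LOC105375751, numbered 5, of which 3 were positive. The leftmost of all (126950772 to 126951100) had 1.07 ± 0.80 (SE) at a mean level of 4.32 in the authors' deposited table, too low for an adjusted p. The 2 of the 5 with an adjusted p had log2 fold changes of -0.19 ± 0.32 (SE; 126967607 to 126969451) and 0.08 ± 0.32 (127008012 to 127010170) in the authors' deposited table. Neither differed from 0 by more than its SE. Further right, the region from 127034407 to 127037310 had 0.67 ± 0.31 in the authors' deposited table (adjusted p 0.226). A region over the non-coding genes PCAT2 and PRNCR1 had 1.19 ± 0.44 at a mean level of 14.4, too low for an adjusted p.

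The group over CCAT1, a non-coding gene known from colorectal cancer enhancers, held only positive values, in 6 of 6 regions, beside 73.7% of all regions. An adjusted p was computed for 3 of the 6. Its widest region (127204714 to 127212528, 7.82 kb), over the left part of CCAT1, had a mean level of 139 and a log2 fold change of 0.83 ± 0.22 (SE) in the authors' deposited table (adjusted p 0.0241). The next one (127214328 to 127216807), also over CCAT1, had 1.01 ± 0.33 at a level of 31.9 in the authors' deposited table and an adjusted p of 0.0833. The third (127220116 to 127227287) had the highest level on this side, 161, with 0.73 ± 0.22 in the authors' deposited table. Its adjusted p of 0.0560 was the closest to the threshold among the members that did not pass. These 3 regions had overlapping errors and fell on both sides of the threshold.

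To their right, a region within CASC21 (127248843 to 127255091, 6.25 kb, level 115) had 0.75 ± 0.22 in the authors' deposited table (adjusted p 0.0407), the closest to the threshold of those that passed. A region shared by the CASC21 and CASC8 spans (127292860 to 127297003, level 60.3) had 0.35 ± 0.26 in the authors' deposited table, near the median of all regions with an adjusted p. The largest value of the locus among regions with an adjusted p followed within the same 2 spans.

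That region (127339133 to 127342945, 3.81 kb) had a log2 fold change of 1.47 ± 0.28 (SE) in the authors' deposited table, a ratio of 2.77, at a mean level of 54.0. Its 95% interval from that SE ran from 0.91 to 2.03. Its unadjusted p was 2.25e-07 and its adjusted p 0.000483 in the authors' deposited table, rank 17 by p-value and rank 31 by fold change among the 36436 regions. It lay 16.9 kb to the right of the POU5F1B start the authors used, 70.5 kb to the left of the RefSeq start of POU5F1B and 394 kb to the left of the MYC start. Both small regions to its left in the same group were also positive, with 0.81 ± 0.59 and 0.91 ± 0.60 in the authors' deposited table. Nearby within the same spans, the region from 127365615 to 127367319 had 0.60 ± 0.37 in the authors' deposited table. All 13 regions over CASC21 and all 11 over CASC8 were positive, with 9 regions shared by both counts, beside 73.7% of all regions. An adjusted p was computed for only 4 of the 13 and 3 of the 11. The others had a median SE of 0.78 over CASC21 and 0.68 over CASC8, so their signs carry wide errors.

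Of the 3 members that passed, the CASC21/CASC8 region alone passed with the median of all regions with an adjusted p subtracted. Its adjusted p was then 0.0479, computed from the authors' deposited table. The CCAT1 and CASC21 regions had 0.695 and 0.870 there.

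The 60 regions assigned to MYC held 0 calls of the authors' deposited table among the 24 with an adjusted p, where 1.67% of all regions passed. An unadjusted p under 0.05 was found for 5 of the 24 (20.8%), close to the 18.4% of all regions. Of these 24, 23 were positive (95.8%, beside 87.3% of all such regions). Their median was 0.40, with a lowest value of -0.23 and a highest of 0.77 in the authors' deposited table. To the left of the gene, 8 regions lay between 88.7 and 196 kb from the start. The one with the highest level (127637649 to 127641185, level 81.9) had the lowest value of the whole locus among regions with an adjusted p, -0.23 ± 0.27 (SE) in the authors' deposited table. Its 95% interval, -0.75 to 0.29, lay below the median of all regions with an adjusted p, 0.32. Both of its neighbours with an adjusted p, 0.24 ± 0.32 and 0.38 ± 0.34 in the authors' deposited table, were positive.

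The region over the MYC start (127733810 to 127739772, 5.96 kb) covered the right end of the non-coding gene CASC11 and the first part of MYC. It had a mean level of 148, or 24.9 per kb, a level per length exceeded by 11.2% of all regions in the authors' deposited table. That is close to the median of regions over starts with an adjusted p, 25.8 per kb. Its log2 fold change was 0.54 ± 0.25 (SE), a ratio of 1.45, with an unadjusted p of 0.0307 and an adjusted one of 0.229 in the authors' deposited table. Regions over starts with an adjusted p had a median log2 fold change of 0.35 in the authors' deposited table. The nearest region to its right, across a gap of 21.0 kb, was small, with 0.30 ± 0.65 at a level of 6.15 in the authors' deposited table.

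PVT1 is a long non-coding RNA gene whose span holds enhancers and whose promoter is known to compete with that of MYC for them. It carried 30 members, of which 25 were positive (83.3%, beside 73.7% of all regions). The 5 negative ones, from -0.65 to -0.06 in the authors' deposited table, were all too low in level for an adjusted p. All 13 with an adjusted p were positive, in a narrow range whose ends were 0.26 and 0.61 and whose median was 0.41 in the authors' deposited table. They included the widest and highest member (127850673 to 127862786, 12.1 kb), with a mean level of 278 that 0.945% of all regions exceeded. Its log2 fold change was 0.52 ± 0.20 (SE) in the authors' deposited table, with an unadjusted p of 0.0107 and an adjusted one of 0.159. The region from 127904907 to 127913883 had a level of 224 and a log2 fold change of 0.39 ± 0.21 in the authors' deposited table. The one over the left end of PVT1 (127793935 to 127803364) had a level of 192 and 0.53 ± 0.22 in the authors' deposited table, and its neighbour (127806207 to 127813648) a level of 180 and 0.33 ± 0.21. Per length these 4 regions had levels of 20.3 to 24.9 per kb, beside 24.9 for the region over the MYC start. Their fold changes, 0.33 to 0.53, differed from each other by less than the SE of any of them.

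Beyond PVT1, 20 members reached out to 998 kb from the MYC start, and 17 of them were positive (85.0%, beside 73.7% of all regions). The 3 negative ones, from -0.94 to -0.17 in the authors' deposited table, had no adjusted p. The 7 with an adjusted p were all positive, beside 87.3% of all such regions. Levels beyond PVT1 were lower, at most 58.4. The highest (128175827 to 128178702), within LOC124902020, had 0.75 ± 0.28 (SE) in the authors' deposited table (adjusted p 0.132), and the region from 128225879 to 128227934 had 0.77 ± 0.40. Between these and PVT1, 2 regions had values near 0, 0.01 ± 0.35 and 0.07 ± 0.33 in the authors' deposited table. The largest value of any member, 2.31 ± 0.87, belonged to a region of 311 bases within LINC00824 at a level of 3.72, which received no adjusted p in the authors' deposited table.

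**Figure D3:**
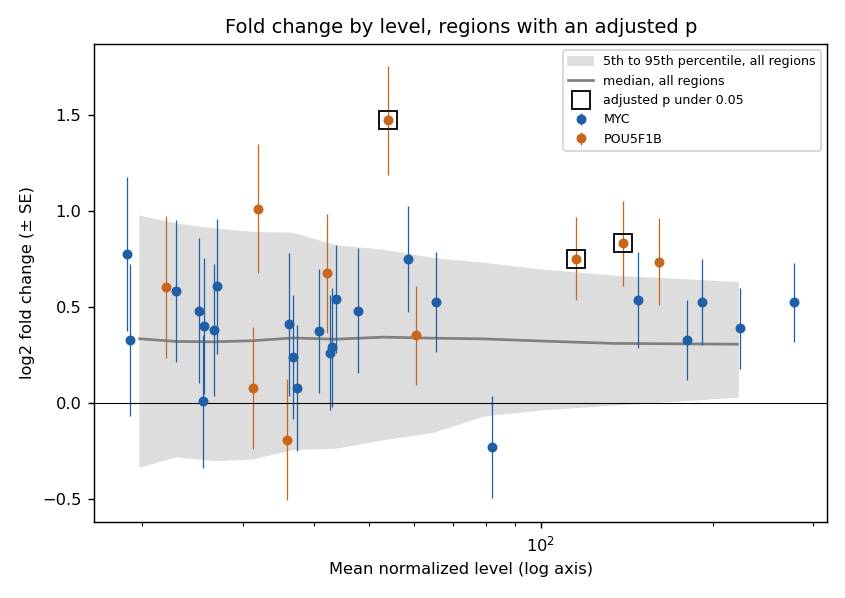
Log2 fold change (bars, 1 SE) against mean normalized level on a log axis for the 34 members with an adjusted p, over the band from the 5th to the 95th percentile of all such regions in 12 bins of level. Of the 24 MYC regions (blue), 18 lie above 0.32, the median of all regions with an adjusted p, and the lowest has -0.23. The POU5F1B regions that passed (squares) lie above the band.

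Set side by side, the sections of the locus differed in their values. The 10 POU5F1B regions with an adjusted p had a median of 0.70 in the authors' deposited table, from -0.19 to 1.47, and the 24 MYC regions a median of 0.40, from -0.23 to 0.77, so the 2 sets overlapped. Members whose 95% interval lay wholly above the median of all regions with an adjusted p were counted. They were 4 of 10 for POU5F1B and 0 of 24 for MYC, beside 2.60% of all such regions in the authors' deposited table. This difference between the 2 sets was not tested, because it was known when the locus was chosen. The fold change did not follow the level: Spearman's rho over the 34 regions, which share libraries, was 0.12 (a description over regions, not over samples).

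The genes on both sides set the edges of the locus. The last regions before the POU5F1B members belonged to FAM84B, and one of them, 51.3 kb from the outermost member (126896604 to 126899463), had 1.57 ± 0.36 (SE) and an adjusted p of 0.00621 in the authors' deposited table. It lay 338 kb from the FAM84B start. FAM84B regions had a median of 0.30 over 19 with an adjusted p, close to that of all regions, and this was their single call. On the far side of MYC the next regions belonged to GSDMC, a gasdermin gene, whose 20 regions with an adjusted p had a median of 0.01 in the authors' deposited table, 11 of them positive, 2 with an unadjusted p under 0.05 and 0 calls. The first of these with an adjusted p, 51.1 kb beyond the outermost MYC region, had 0.32 ± 0.25 in the authors' deposited table. Of 512 genes with at least 10 such regions, 5 had a higher median than POU5F1B, 89 a higher one than MYC and 33 a lower one than GSDMC.

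**Figure D4:**
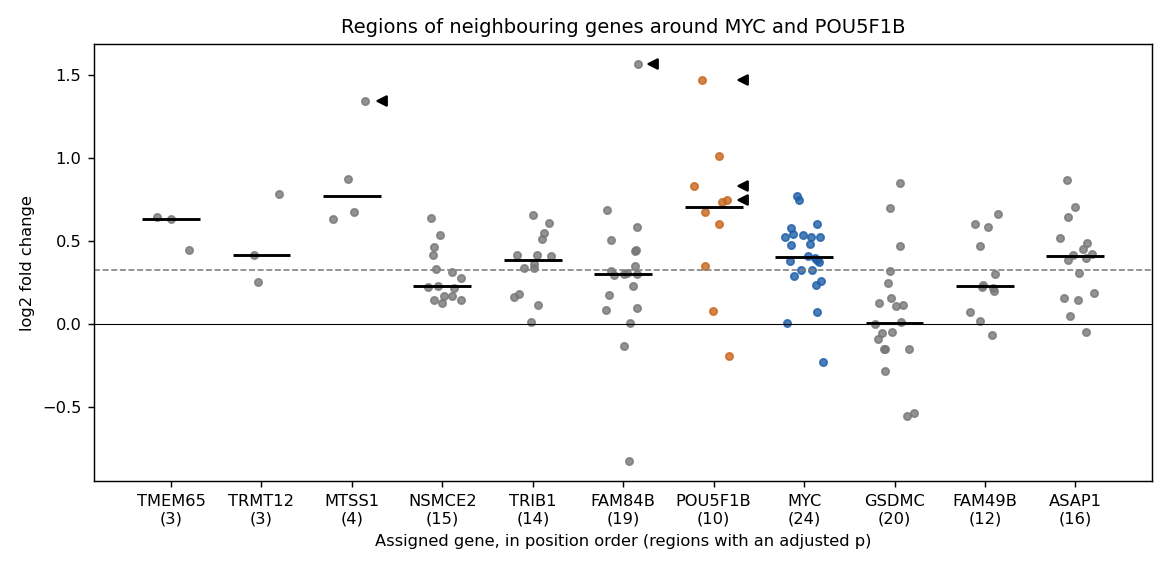
Log2 fold change of each region with an adjusted p, for the genes with at least 3 such regions within 3 Mb of the locus, in position order (number of regions in brackets). Black lines are medians, the dashed line the median of all regions with an adjusted p, and triangles mark adjusted p values under 0.05. POU5F1B has a median of 0.70, MTSS1 a higher one of 0.78 over 4 regions, and GSDMC one of 0.01.

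Members over 100 kb from their gene numbered 61, and the 23 of these with an adjusted p had a median of 0.48, beside 0.27 for the 8617 other regions at such distances in the authors' deposited table. MYC had 46 such far regions, rank 30 among 3772 genes with any, and POU5F1B 15. The 5 other genes with the most far regions were TENM3 (90), GPC5 (80), FAM72B (79), TENM2 (77) and RAD51B (70). Their medians over the 38, 30, 5, 20 and 31 regions with an adjusted p were 0.28, 0.20, 0.26, 0.11 and 0.19 in the authors' deposited table. Over all 82 of its regions FAM72B had a median of -1.03. These 5 genes held 1 call in all, at GPC5, where 1.67% of all regions with an adjusted p passed. By number of calls, POU5F1B was among 13 genes with 3 or more, of 536 with any call and 17301 in all. Only regions with an adjusted p can pass, and no more than 512 genes had at least 10 of them. The calls of POU5F1B were known when the locus was chosen. The HMGA2 and CDCP1 loci, with 5 calls each in the authors' deposited table, had medians of 0.26 over 22 and 0.78 over 11 regions with an adjusted p.

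Genes that work with MYC were described from lists, whose counts stand beside 1.67% of all regions called and 18.4% with an unadjusted p under 0.05 in the authors' deposited table. MAX and the other members of its network, which bind the same DNA element as MYC and many of which oppose it, had regions for 10 of 10 genes, with 1 call among 35 regions (2.86%) and a median of 0.36 in the authors' deposited table. The call lay beside MXI1, a repressor that competes for MAX (0.87 ± 0.24, SE; adjusted p 0.0300). Factors known to act at the MYC locus had 3 calls among 65 regions (4.62%) and a median of 0.31 in the authors' deposited table. An unadjusted p under 0.05 was found for 16.9% of the 65. Among 14 regions with an adjusted p assigned to TCF7L2, the Wnt pathway factor that binds MYC enhancers, 2 passed (0.73 ± 0.21 and 1.05 ± 0.31). These 2 lay 32.4 and 29.5 kb from the TCF7L2 start, and the region over that start had 0.22 ± 0.20 (adjusted p 0.506). Textbook MYC targets had 1 call among 43 regions (2.33%) and a median of 0.27 in the authors' deposited table, the call lying beside ODC1, the first enzyme of polyamine synthesis (0.79 ± 0.24). With the median of all regions with an adjusted p subtracted, none of the 4 called regions named here passed. Their adjusted p then ran from 0.671 to 0.883, computed from the authors' deposited table.

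In 3 lists no region passed in the authors' deposited table, whose column names are those of DESeq2. Regulators of MYC protein stability and cofactors had 29 regions with an adjusted p, 1 with an unadjusted p under 0.05 (3.45%), and a median of 0.29, with the start regions of AURKA (0.17 ± 0.22, SE), RUVBL2 (0.37 ± 0.25) and HUWE1 (0.07 ± 0.23) as the highest in level. POU genes other than POU5F1B had 35 such regions, 6 with an unadjusted p under 0.05 (17.1%), and a median of 0.25, with POU2F1 (0.25 ± 0.19) and POU3F2, a melanoma-associated factor (0.35 ± 0.24), the highest at starts in the authors' deposited table. MYCN and MYCL together had 4 such regions, 1 with an unadjusted p under 0.05. The region over the MYCL start had 0.85 ± 0.36 in the authors' deposited table (adjusted p 0.192). The list of protein-coding neighbours along the arm had 2 calls among 130 regions (1.54%), those of FAM84B and MTSS1 (1.34 ± 0.35), and a median of 0.31 in the authors' deposited table.

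As a check of the cell type, the melanocyte lineage genes SOX10, PMEL and MITF had regions over their starts with mean levels of 774, 269 and 98.4 in the authors' deposited table. The median level of all regions over starts was 83.7, so the level at MITF was near that of an ordinary start. MLANA, TYR and DCT had regions assigned to them but none over a start.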

How the data were processed

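H3K27ac chromatin immunoprecipitation libraries of A375 cells, 2 with octanoate and 2 with vehicle, were grouped by the treatment in the labels. The labels do not say whether the 2 libraries of a group came from separate cultures. The submitters' processing notes name Trim Galore, cutadapt, FastQC, Bowtie2, Picard, MACS2, featureCounts, DESeq2 and bedtools 2.29.1 and the build hg38, with no role or order. The file analysed is 1 table of the authors' own comparison. Per the file headers, the mean level is a signal normalized by the authors, and the fold change and its SE are on the log2 scale. The score the authors deposited is the fold change divided by its SE, and the p-value columns are the authors' unadjusted and adjusted values. A deposited adjusted p-value of 1 was read as not computed. Depth per library is unknown, and 0 columns of single libraries were left out.

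A region listed on several lines, marked by a suffix, was counted once. Deposited distances gave 1 start per gene only if region starts count from 0, so 1 was added to each start printed. Gene spans are from RefSeq (GRCh38.p14). Levels per kb, medians, joined groups and normal 95% intervals from the authors' SE were computed with Python 3.11.15, pandas 2.3.3 and scipy 1.17.1. Centring subtracted the median of all regions with an adjusted p-value, kept the authors' SE and applied Benjamini-Hochberg adjustment over the same regions. The adjustment, the centring and the joining of regions were checked on simulated or made-up values, and the other steps were not. The members, lists and settings were chosen with earlier results of these data known. Named singly were the regions that passed, the extremes in fold change, level and width, those at and nearest the starts and those nearest the threshold, with others given for position order. From each list were named genes with a call, otherwise those with the highest level at a start. KIAA1524 and other older symbols were matched through RefSeq. Some results of the lists are not reported here.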

Additional observations from a re-analysis of the deposited data

How the results depend on the processing

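The count of 3 members that passed became 1 under each of 6 alternatives. They included an adjusted p-value under 0.01, an added log2 limit of 1 in either direction, and adjustment over all lines or over all distinct regions. The others were centring on the median of all regions with an adjusted p-value or of those on chromosome 8. In each it was the region shared by CASC21 and CASC8, whose adjusted p-value ran from 0.00119 to 0.0479 over the adjustments and centrings. It stayed 3 with a mean level of at least 10, with every region between the outermost members and without regions shared with another gene, settings that by construction keep all 3 of those regions. The median of the members, 0.55, was 0.48 over regions with an adjusted p-value, and the share of positive values, 87.9%, was 93.8% at a mean level of at least 10 and 94.1% over regions with an adjusted p-value. The cause was not tested. Joining at 5 and 20 kb gave 54 and 28 groups in place of 41. No paired analysis was possible because values of single libraries are not part of the table, and leaving out replicates or changing the normalization was not run for the same reason.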
